A study of Mus musculus with 8 samples.

Results

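The 10 genes described here carry long-chain fatty acids from the capillary wall into the mitochondrion of the heart and were chosen by symbol from the 16994 genes of the deposited count table. They were *Lpl*, *Cd36*, *Slc27a1*, and *Fabp3* for uptake, *Acsl1* for activation, *Cpt1a*, *Cpt1b*, and *Cpt2* for the carnitine shuttle, and *Acacb* and *Mlycd* for the control of malonyl-CoA. All 10 were found in the table, and all 10 averaged above 1 CPM (counts as they would stand in a library of a fixed size). RNA was sequenced from 4 regions, the left ventricle, infarct zone, border zone, and remote zone, of male WT mice and male mice with whole-body knockout of *Tigar* (TKO), the gene of a fructose bisphosphatase. Infarcted mice were 16 weeks old at permanent ligation of the left anterior descending coronary artery, and heart function was followed for 4 weeks. The time at which tissue was taken for RNA is not stated in the sources used here. The methods give a knockout-first allele on the C57BL/6N background as the origin of the floxed *Tigar* mice. For the TKO mice they refer to an earlier paper. The loss of the gene in TKO mice was not restricted to cardiomyocytes. The left ventricle served as the normal reference, and whether those hearts had a sham operation is not given in the sources used here. Each combination of genotype and region was 1 library, 8 in all, so no group had a replicate. RNA of 3 mice was pooled for each infarct zone library, and neither the number of mice behind the other libraries nor whether regions came from the same hearts is given in the sources used here.

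Total counts lay between 27429240 and 33799249 per library. *Tigar* was at 1965, 1066, 2215, and 1997 counts in the WT left ventricle, infarct zone, border zone, and remote zone, and at 51, 87, 79, and 87 counts in the same regions of TKO hearts, so every library matched its genotype label. Other features of the libraries touch the genes described here. In both infarct zone libraries, all 11 cardiomyocyte markers were below their left ventricle level. The WT left ventricle library held adipocyte transcripts, with 6 markers summing to 74.1 CPM against 1.20 CPM in the TKO left ventricle and 4.50 to 16.7 CPM in the other 6 libraries. The WT infarct and border zone libraries held transcripts of fast skeletal muscle, with 6 markers summing to 169 and 32.0 CPM against 1.39 to 2.88 CPM in the other 6 libraries.

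The adult heart takes most of its energy from long-chain fatty acids. Lipoprotein lipase (*Lpl*) on the capillary wall frees fatty acids from circulating triglyceride, CD36 and the transport protein FATP1 (*Slc27a1*) bring them across the plasma membrane, the heart-type binding protein FABP3 carries them in the cytosol, and the acyl-CoA synthetase ACSL1 activates them. Carnitine palmitoyltransferase 1 on the outer mitochondrial membrane, as the liver-type isoform CPT1A or the muscle-type isoform CPT1B, then makes acylcarnitine, which CPT2 turns back into acyl-CoA inside the mitochondrion. Malonyl-CoA blocks carnitine palmitoyltransferase 1, acetyl-CoA carboxylase 2 (*Acacb*) makes malonyl-CoA at the mitochondrial surface, and malonyl-CoA decarboxylase (*Mlycd*) removes it.

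On the GRCm38 build the uptake genes lie at ENSMUSG00000015568, chr8:68880491-68907448, plus strand (*Lpl*), ENSMUSG00000002944, chr5:17781690-17888801, minus strand (*Cd36*), ENSMUSG00000031808, chr8:71568882-71587302, plus strand (*Slc27a1*), and ENSMUSG00000028773, chr4:130308595-130315463, plus strand (*Fabp3*). *Acsl1* lies at ENSMUSG00000018796, chr8:46471037-46536051, plus strand. The shuttle genes lie at ENSMUSG00000024900, chr19:3322334-3385733, plus strand (*Cpt1a*), ENSMUSG00000078937, chr15:89416405-89425863, minus strand (*Cpt1b*), and ENSMUSG00000028607, chr4:107903981-107923610, minus strand (*Cpt2*). The malonyl-CoA genes lie at ENSMUSG00000042010, chr5:114146535-114250761, plus strand (*Acacb*) and ENSMUSG00000074064, chr8:119394878-119411102, plus strand (*Mlycd*). *Cpt1b* lies wholly inside the annotated gene *Gm44502* on the same strand, over 9459 bases, and *Gm44502* is not used here, so reads of both could be counted for *Cpt1b*. *Fabp3* overlaps *Zcchc17* by 81 bases, *Acsl1* overlaps *Gm45244* by 2200 bases, and *Acacb* spans the pseudogene *Gm13784* of 750 bases, all on the opposite strand, and whether the counting used strand is not given in the sources used here.

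Promoter windows were read from RefSeq on GRCm38.p6, as the 250 bases before an annotated start, and they were found for 8 of the 10 genes, as 11 windows. *Cpt1b* and *Lpl* had no entry. The direct repeat half-site of nuclear receptors, AGGTCA, was searched on both strands, and 14.02% of all 32851 windows of that length held it at least once. It was found in 2 of the 11 windows, those of *Cd36* and *Cpt1a*, in both cases on the opposite strand, so that the printed strand reads TGACCT. The match lay at bases -228 to -223 before the *Cd36* start and at bases -94 to -89 before the *Cpt1a* start. Both windows lie inside the gene bounds given above, so these starts are internal ones and not the outermost start of the gene. The extended half-site TNAAGGTCA contains the half-site and was held by 1.14% of all windows. The spaced pair of half-sites bound by PPAR and RXR was held by 0.338%. A pattern used for MEF2, with fixed outer bases and any bases in its middle, was held by 3.20%. Each of these was found in 0 of the 11 windows on either strand. Other forms of the MEF2 site were not searched. A match describes letters and is not a binding site. The windows of *Cpt1a*, which stood apart from the other 9 genes in the infarct zone, of its shuttle partner *Cpt2*, and of *Cd36*, the other gene with a match, are shown 5′ to 3′ in the direction of the gene, with capitals marking the half-site. They lie at chr19:3323051-3323300 (plus strand), chr4:107923590-107923839 (minus strand), and chr5:17835897-17836146 (minus strand).
Cpt1a: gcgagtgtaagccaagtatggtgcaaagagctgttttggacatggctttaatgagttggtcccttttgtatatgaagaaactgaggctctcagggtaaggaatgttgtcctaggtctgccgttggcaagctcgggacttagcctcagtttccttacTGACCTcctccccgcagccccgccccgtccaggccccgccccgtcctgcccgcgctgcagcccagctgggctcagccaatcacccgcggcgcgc
Cpt2: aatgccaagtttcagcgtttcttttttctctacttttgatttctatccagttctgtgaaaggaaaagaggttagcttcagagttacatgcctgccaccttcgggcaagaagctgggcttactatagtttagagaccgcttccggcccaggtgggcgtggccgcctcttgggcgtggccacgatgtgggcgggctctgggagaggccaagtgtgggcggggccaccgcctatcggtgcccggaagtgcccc
Cd36: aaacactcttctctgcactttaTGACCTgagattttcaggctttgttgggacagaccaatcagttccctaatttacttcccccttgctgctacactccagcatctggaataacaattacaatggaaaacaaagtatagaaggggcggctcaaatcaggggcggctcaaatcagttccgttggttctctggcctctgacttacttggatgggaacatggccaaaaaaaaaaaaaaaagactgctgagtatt

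Counts were scaled with TMM (trimmed mean of M values), which sets libraries to a common centre of most genes, and levels are given in CPM on that scale. To compare genes with each other, CPM was divided by the length of the longest protein-coding transcript in kilobases. On that scale *Fabp3* was first of the 10 in every library, from 895 CPM per kb in the WT infarct zone to 4191 in the TKO left ventricle. *Lpl* and *Cd36* came next, in that order, in every library, at 942 and 418 CPM per kb in the WT left ventricle. *Acsl1* at 231 and *Cpt1b* at 217 CPM per kb were close to each other there, *Cpt2* was at 91.3, *Mlycd* at 64.5, and *Acacb* at 46.1. *Slc27a1* at 15.3 and *Cpt1a* at 14.7 CPM per kb were the 2 lowest in the WT left ventricle. With 1 library per group there is no spread to say which neighbours in this order differ. With the median transcript length, *Fabp3* was still first in the WT left ventricle, and *Acsl1* came before *Lpl* and *Cd36*. *Lpl* and *Fabp3* together made up 64.7% to 67.7% of the counts of the 10 genes over the 8 libraries.

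Of the uptake genes, *Lpl* was at 3876 CPM in the left ventricle, 899.6 in the infarct, 2308 in the border, and 2855 in the remote zone of WT hearts, and at 3353, 1605, 3241, and 3611 CPM in the same regions of TKO hearts. *Cd36* was at 1422 CPM in the left ventricle, 340.1 in the infarct, 1037 in the border, and 1220.1 in the remote zone of WT hearts, and at 1227, 623, 1205, and 1259.6 CPM in the same regions of TKO hearts. Both genes were lowest in the 2 infarct zone libraries and highest in the WT left ventricle, and within the infarct zone the TKO library was above the WT library for both. *Fabp3* was at 3287 CPM in the left ventricle, 737 in the infarct, 2800.4 in the border, and 3227 in the remote zone of WT hearts, and at 3449, 1380.4, 3159.8, and 3152 CPM in the same regions of TKO hearts. Outside the infarct zone its highest library, the TKO left ventricle, was 3449 CPM and its lowest, the WT border zone, 2800.4 CPM, so the 6 libraries outside the infarct lay close together. *Slc27a1*, the lowest of the uptake genes, was at 42.9 CPM in the left ventricle, 10.4 in the infarct, 25.9 in the border, and 26.8 in the remote zone of WT hearts, and at 33.1, 10.7, 41.6, and 40.6 CPM in the same regions of TKO hearts. It was the only uptake gene with nearly the same level in both infarct zone libraries, and its border and remote zone levels were higher in TKO than in WT.

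*Acsl1*, the main acyl-CoA synthetase of the heart, was at 899 CPM in the left ventricle, 167 in the infarct, 605 in the border, and 665 in the remote zone of WT hearts, and at 817, 374, 792, and 813 CPM in the same regions of TKO hearts. *Cpt1b*, the muscle-type carnitine palmitoyltransferase, was at 629 CPM in the left ventricle, 132 in the infarct, 422 in the border, and 459 in the remote zone of WT hearts, and at 647, 285, 530.2, and 538 CPM in the same regions of TKO hearts. Both were lowest in the WT infarct zone, second lowest in the TKO infarct zone, and higher in TKO than in WT in all 3 zones of the infarcted heart. *Cpt2* was at 216 CPM in the left ventricle, 39.7 in the infarct, 130.4 in the border, and 147 in the remote zone of WT hearts, and at 204, 82.2, 180.4, and 184 CPM in the same regions of TKO hearts. The 8 libraries fell in the same order for *Cpt2* as for *Acsl1*, from the WT infarct zone up to the WT left ventricle. *Cpt1a*, the liver-type isoform, was at 63.4 CPM in the left ventricle, 61.3 in the infarct, 50.5 in the border, and 51.9 in the remote zone of WT hearts, and at 53.3, 53.5, 47.0, and 55.9 CPM in the same regions of TKO hearts. Its 8 libraries spanned a 1.35-fold range, against 4.11-fold to 5.45-fold for the other 9 genes, and its 2 infarct zone libraries lay within the range of the others.

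*Acacb* was at 405 CPM in the left ventricle, 74.8 in the infarct, 219 in the border, and 232 in the remote zone of WT hearts, and at 264, 147, 302, and 319.9 CPM in the same regions of TKO hearts. *Mlycd* was at 137 CPM in the left ventricle, 27.4 in the infarct, 77.2 in the border, and 99.8 in the remote zone of WT hearts, and at 147, 54.9, 102, and 104 CPM in the same regions of TKO hearts. For both, the WT infarct zone was the lowest library and the TKO infarct zone the next, but they differed in the left ventricle, where *Acacb* was lower and *Mlycd* slightly higher in TKO than in WT. As a share of all counts in a library, the 10 genes together took 0.384% (0.382% to 0.386%) in the WT infarct zone and 0.581% (0.578% to 0.583%) in the TKO infarct zone, with exact (Clopper-Pearson) 95% intervals. The share was 0.733% to 0.953% in the other 6 libraries. Genes encoded by mitochondrial DNA, which are part of all counts, took 20.7% in the WT and 27.9% in the TKO infarct zone. They took 36.6% to 39.3% in the other 6 libraries, and their part in the shares of the 10 genes was not tested.

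**Figure D1:**
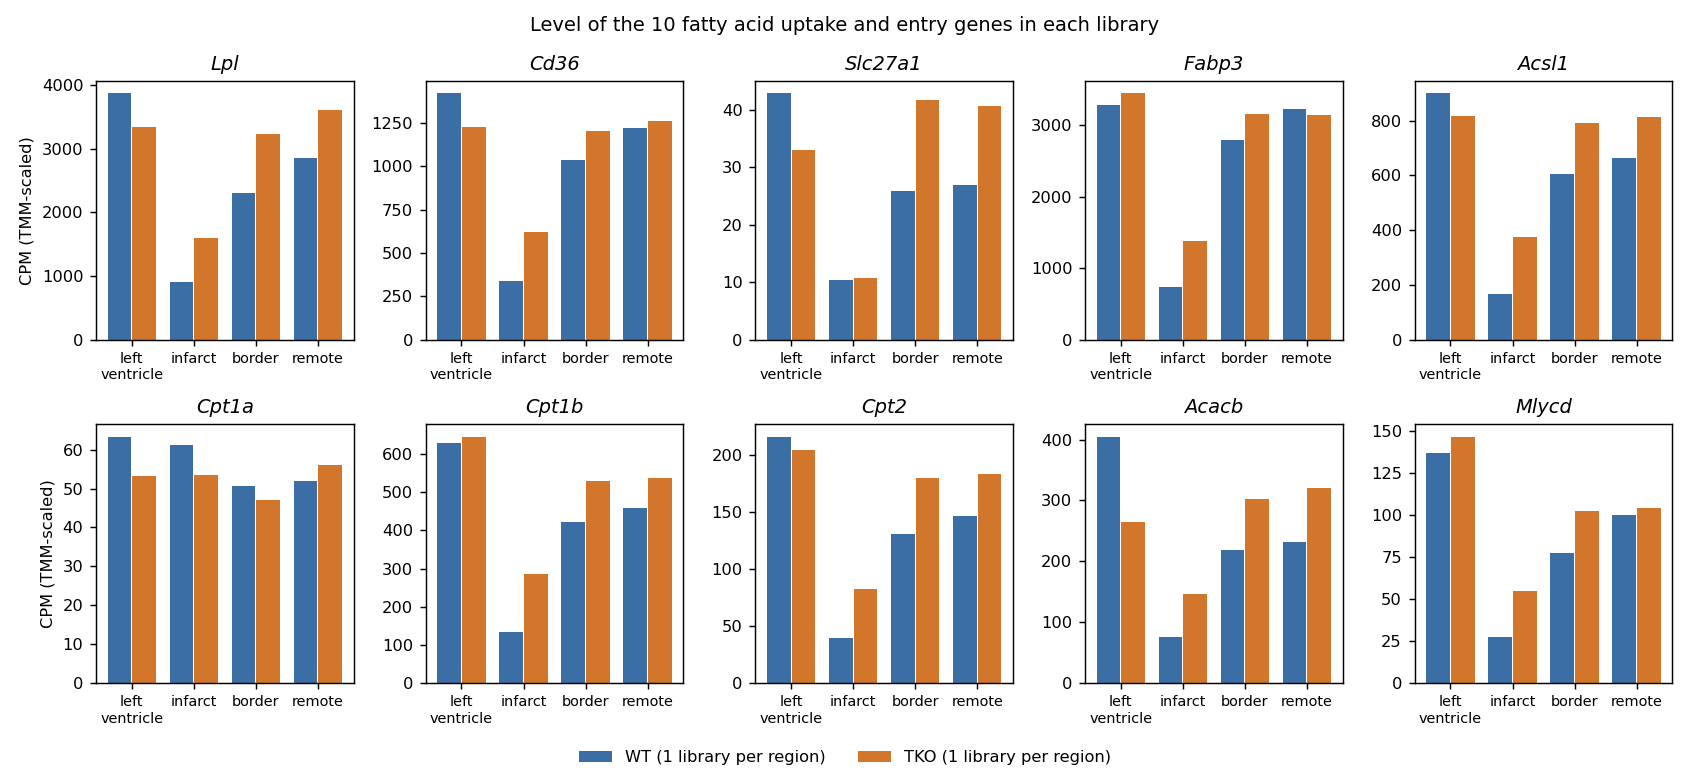
Level of each of the 10 genes in CPM (TMM-scaled, linear axis from 0) in the left ventricle, infarct zone, border zone, and remote zone, with 1 bar per library, WT in blue and TKO in orange. The infarct zone bars are the lowest of each genotype for 9 genes, while *Cpt1a* stays between 47.0 and 63.4 CPM.

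The first comparison asked how the infarct zone differed from the left ventricle in each genotype. Of the 10 genes, 9 fell in the infarct zone by the test across both genotypes described next, and *Cpt1a* did not pass it. In WT the infarct zone over left ventricle ratio of the 9 genes ran from 0.183 (0.174 to 0.194) for *Cpt2* to 0.243 (0.217 to 0.271) for *Slc27a1*, so that all 9 were at least 2-fold lower (counted with a prior count of 2), beside 14.9% of the 12999 genes tested lower and 18.6% higher. In TKO it ran from 0.325 (0.287 to 0.367) for *Slc27a1* to 0.555 (0.535 to 0.575) for *Acacb*, and 7 of the 10 were at least 2-fold lower, beside 7.68% of all genes lower and 16.1% higher. *Cd36* and *Acacb* were the 2 of the 9 that did not reach 2-fold in TKO. With total counts in place of TMM, the median ratio of all genes was 1.80 in WT and 1.47 in TKO. The 9 WT ratios were then still at least 2-fold lower, and 1 of the TKO ratios, that of *Slc27a1*, was. *Cpt1a* had a ratio of 0.967 (0.910 to 1.03) in WT and 1.003 (0.936 to 1.08) in TKO. Values in parentheses bound each ratio at 95% by the exact binomial method and take in counting error alone, since 1 library is set against 1 with no replicate check.

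Over both genotypes together, the quasi-likelihood test of edgeR, adjusted over all genes by Benjamini-Hochberg, called the same 9 genes lower in the infarct zone, beside 28.6% of all genes called lower and 28.2% higher. DESeq2 called the same number, beside 28.4% of all genes lower. The log2 fold change was -1.59 ± 0.29 (SE) for *Lpl*, -1.50 ± 0.28 for *Cd36*, -1.86 ± 0.27 for *Slc27a1*, and -1.71 ± 0.29 for *Fabp3*. For the activation and shuttle genes it was -1.76 ± 0.31 for *Acsl1*, -1.69 ± 0.27 for *Cpt1b*, and -1.87 ± 0.26 for *Cpt2*. For the malonyl-CoA genes it was -1.68 ± 0.36 for *Acacb* and -1.85 ± 0.24 for *Mlycd*. The adjusted p of the 9 genes, by edgeR, lay between 0.00160 for *Mlycd* and 0.00785 for *Acacb*, and each of the 9 was lower in both genotypes. *Cpt1a* had a log2 fold change of -0.02 ± 0.12 and an edgeR adjusted p of 0.881. The fit had 3 residual degrees of freedom and treated the genotypes as repeats of a region, so its p-values measure how far the 2 genotypes agree and not the spread between mice.

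The lower levels moved together with the makeup of the tissue. All 11 cardiomyocyte markers were called lower in the infarct zone, and their summed level was 11710.4 CPM in WT and 23684 CPM in TKO, against 47823 and 50413 CPM in the left ventricles. All 7 fibroblast markers were called higher, with sums of 8235 and 6830.4 CPM in the infarct zones against 866 and 969.6 CPM in the left ventricles, and so were all 8 macrophage markers, with 1668 and 1232 against 395 and 349 CPM. The 8 endothelial markers summed to 577 and 674 CPM in the infarct zones and to 723 and 796 CPM in the left ventricles, and 1 of the 8, *Kdr*, was called, lower. None of these markers was at 0 counts in any library. In bulk tissue, fewer cells of a type and less RNA per cell cannot be told apart.

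With TMM, the infarct zone over left ventricle ratios of the 11 cardiomyocyte markers ran from 0.120 for *Myh6* to 0.346 for *Actc1* in WT. In TKO they ran from 0.370 for *Tnni3* to 0.635 for *Ryr2*, so values divided by their sum depend on the markers chosen. Divided by the summed cardiomyocyte-marker counts, the infarct zone over left ventricle ratio of the 9 genes lay nearer to 1 than with TMM. In WT it ran from 0.749 for *Cpt2* and 0.754 for *Acacb* to 0.993 for *Slc27a1*, and in TKO from 0.692 for *Slc27a1* to 1.18 for *Acacb*. On this scale *Cpt1a* was 3.95 times its left ventricle level in the WT infarct zone and 2.14 times in the TKO infarct zone. With this scaling edgeR called *Cpt1a* higher in the infarct zone, by 1.58 on the log2 scale, and called 0 of the other 9 genes, of which 0 had an unadjusted p under 0.05, beside 83.6% of all genes called higher and 0.308% lower. The log2 fold changes of the other 9 then lay between -0.33 for *Cpt2* and 0.04 for *Cd36*. This scaling shifted all genes, whose median ratio was 4.14 in WT and 2.16 in TKO, so *Cpt1a* lay close to the median of all genes here as it did with TMM, where that median was 1.01 in both. With total counts in place of TMM the median of all genes was 1.80 in WT and 1.47 in TKO, and all 10 genes were called, 9 lower and *Cpt1a* higher by 0.67 on the log2 scale, beside 8.34% of all genes called lower and 60.5% higher.

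**Figure D2:**
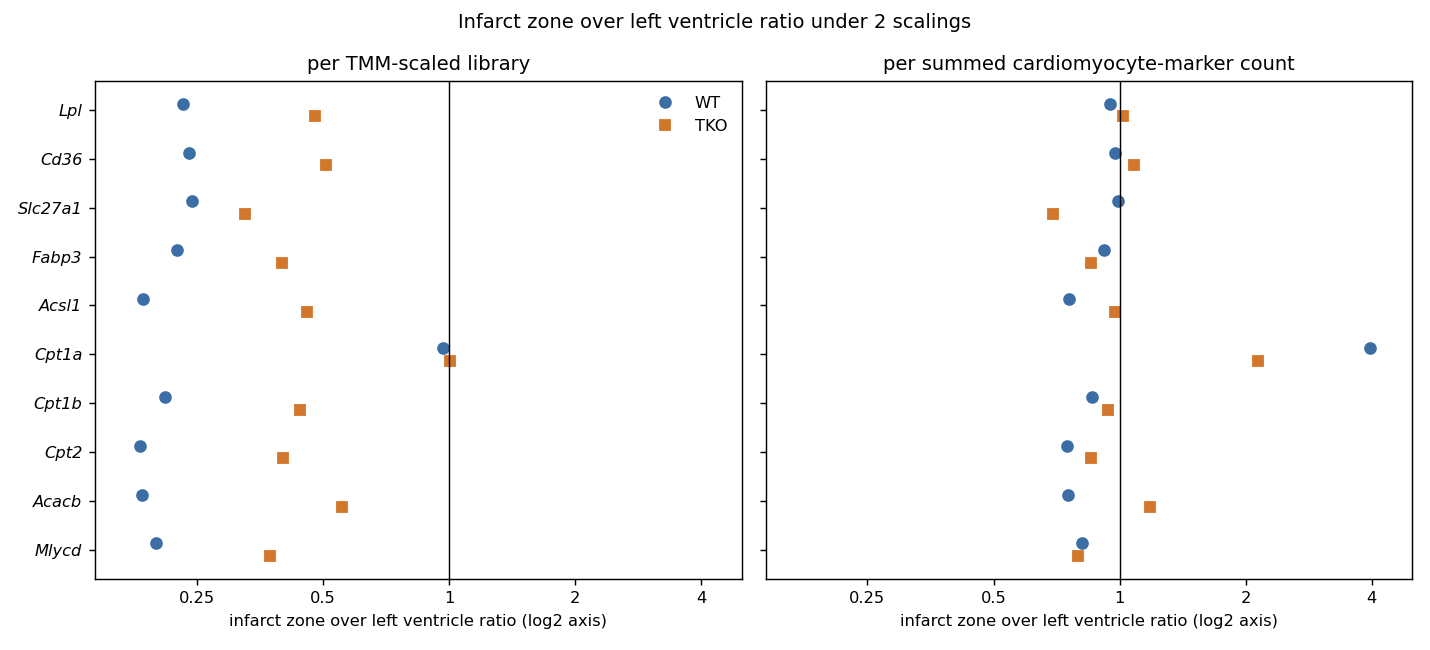
Infarct zone over left ventricle ratio (log2 axis) of the 10 genes in WT (blue circles) and TKO (orange squares), 1 library against 1, with TMM-scaled libraries on the left and per summed count of 11 cardiomyocyte markers on the right. The genes other than *Cpt1a* lie between 0.183 and 0.555 on the left and between 0.692 and 1.18 on the right, while it moves with the median of all genes from near 1 to 3.95 in WT and 2.14 in TKO.

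The other genes of the pathway were counted by list. All 14 measured beta-oxidation enzymes, which shorten acyl-CoA in the mitochondrial matrix, were called lower in the infarct zone, with a median log2 fold change of -1.87 beside -1.70 for the 10 entry genes and 0.02 for all genes. *Acaa2*, a thiolase, was lowest of them in WT at 0.151 and *Eci2*, an isomerase, highest at 0.296. The isomerase *Eci1* did not reach a mean of 1 CPM and was not tested. Of 10 other uptake and binding genes (*Slc27a6* did not reach 1 CPM either), 7 were called lower, the lowest by the fit being *Angptl4* at -1.90 ± 0.24 on the log2 scale. Among the 7 was *Got2*, an aminotransferase that also binds fatty acids at the plasma membrane, at 0.219 in WT and 0.414 in TKO. The list had 1 gene called higher, *Fabp5*, the epidermal-type binding protein, at 1.46 in WT and 1.75 in TKO. Of 7 other activation and hydrolysis genes, 5 were called lower, the lowest being the thioesterase *Acot1* at -2.05 ± 0.39 on the log2 scale, and *Acsl4* and *Acsl5*, synthetases with broad tissue distribution, were called higher, with *Acsl5* at 2.27 (2.06 to 2.51) in WT and 1.65 (1.49 to 1.83) in TKO.

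Of 5 other carnitine genes, *Slc25a20*, the carnitine-acylcarnitine carrier, *Crat*, and the plasma membrane carnitine transporter *Slc22a5* were called lower, with *Slc25a20* at 0.196 in WT and 0.409 in TKO. *Cpt1c*, the brain-type isoform, was called higher, with an edgeR adjusted p of 0.0212, but it was a low gene, with 30 and 65 counts in the left ventricles and 330 and 246 counts in the infarct zones. Of 9 other malonyl-CoA and fatty acid synthesis genes, 3 were called lower and 3 higher. The 3 lower ones were *Acss1*, a mitochondrial acetyl-CoA synthetase, at 0.196 in WT and 0.416 in TKO, *Acss2*, and the AMP-activated kinase subunit *Prkaa2*, and the 3 higher ones were fatty acid synthase (*Fasn*), at 2.13 in WT and 1.80 in TKO, *Acly*, and *Prkag2*. *Acaca*, the cytosolic counterpart of *Acacb*, had an edgeR log2 fold change of 0.58 ± 0.22 and an adjusted p of 0.0619, against -1.68 for *Acacb*. Over these 5 lists, 32 of 45 measured genes were called lower and 7 higher, beside 28.6% and 28.2% of all genes.

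In the border zone, the 10 genes were all below the left ventricle in WT, from 0.540 (0.524 to 0.557) for *Acacb* and 0.562 (0.534 to 0.592) for *Mlycd* to 0.852 (0.844 to 0.860) for *Fabp3*. In TKO 8 were below, from 0.697 (0.665 to 0.732) for *Mlycd*, and 2 were above, *Acacb* at 1.14 (1.11 to 1.18) and *Slc27a1* at 1.26 (1.15 to 1.38). None reached 2-fold, beside 1.84% of all genes at least 2-fold lower and 5.36% higher in WT and 1.7% lower and 4.28% higher in TKO. In the remote zone all 10 genes were again below the left ventricle in WT, from 0.572 (0.556 to 0.590) for *Acacb* to 0.982 (0.973 to 0.991) for *Fabp3*. In TKO the remote zone ratios ran from 0.711 (0.678 to 0.746) for *Mlycd* to 1.23 (1.13 to 1.34) for *Slc27a1*, with 5 genes below 1 and 5 above, and again 0 reached 2-fold, beside 2.1% of all genes at least 2-fold lower and 3.35% higher in WT and 1.53% lower and 3.03% higher in TKO. *Mlycd* had nearly the same remote zone ratio in both genotypes, 0.727 in WT and 0.711 in TKO, whereas *Acacb* had 0.572 in WT and 1.21 in TKO. The cell type markers moved in these zones as well. In WT all 11 cardiomyocyte markers were below their left ventricle level in both zones, with median ratios of 0.770 (border) and 0.851 (remote), and all 7 fibroblast markers were above it, with 3.66 and 1.80. In TKO 8 of the 11 cardiomyocyte markers were below in each zone, with medians of 0.840 and 0.807, and the fibroblast medians were 2.02 and 1.04. The macrophage medians were 1.38 and 1.32 in WT and 1.33 and 1.13 in TKO. Since all these ratios share the left ventricle libraries, and the WT left ventricle held the adipocyte transcripts named above, the values of WT and TKO are given side by side, and the part of those transcripts and of the markers in the ratios was not tested.

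Over both genotypes, edgeR called 0 of the 10 genes in the border zone, beside 0.715% of all genes, and also 0 for the remote zone, beside 0% of all genes. At an unadjusted p under 0.05, 1 gene passed for the border zone and 0 for the remote zone, beside 17.9% and 10.6% of all genes. DESeq2's Wald test called 0 of the 10 in both zones, beside 4.43% and 1.25% of all genes. The gene past the unadjusted threshold in the border zone was *Mlycd*, with a log2 fold change of -0.68 ± 0.23 and an adjusted p of 0.217 by edgeR and 0.0926 by DESeq2. Of the 45 other fatty acid genes, 1 was called in the border zone, *Angptl4*, the secreted inhibitor of lipoprotein lipase, which was lower, and DESeq2 called 3, *Angptl4*, *Acot1*, and *Fabp5*, the last of them higher. *Angptl4* was at 28.6 CPM in the WT and 17.9 CPM in the TKO left ventricle, at 6.26 and 2.46 CPM in the border zones, and at 3.48 and 2.66 CPM in the remote zones. *Angptl4* is known to be made by adipocytes as well. Its highest library was the WT left ventricle, where the adipocyte markers summed to 74.1 CPM. The next was the TKO left ventricle, where they summed to 1.20 CPM, against 16.6 and 7.21 CPM in the WT and TKO border zones. The part of adipocyte transcripts in its levels was not tested.

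**Figure D3:**
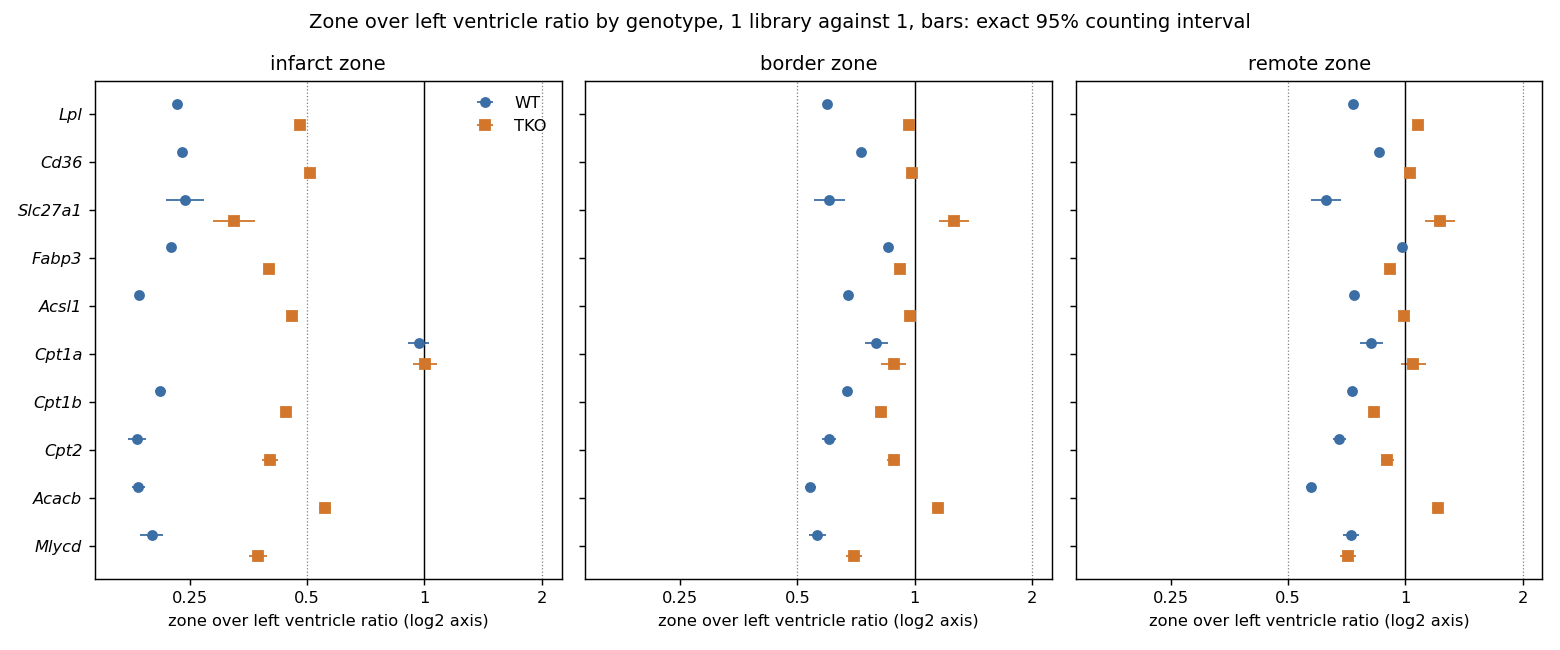
Zone over left ventricle ratio (log2 axis) of the 10 genes in the infarct, border, and remote zones, WT as blue circles and TKO as orange squares, 1 library against 1, with exact 95% counting intervals as bars and dotted lines at 2-fold. In the infarct zone 9 WT points lie at 0.243 or below and the TKO points of the same genes to their right, and *Cpt1a* lies near 1 in both.

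The second comparison asked how TKO differed from WT in each region. In the infarct zone, 9 of the 10 genes were higher in TKO, with a median ratio of 1.92 over the 10 beside 1.005 over all genes. At least 2-fold higher were 4 genes, *Acsl1* at 2.24 (2.18 to 2.31), *Cpt1b* at 2.15 (2.08 to 2.22), *Cpt2* at 2.07 (1.95 to 2.20), and *Mlycd* at 2.003 (1.86 to 2.16), beside 2.45% of all genes higher and 1.43% lower, though the intervals of *Cpt2* and *Mlycd* extend below 2. *Acacb* at 1.96 (1.87 to 2.05), *Fabp3* at 1.87 (1.85 to 1.90), *Cd36* at 1.83 (1.79 to 1.87), and *Lpl* at 1.78 (1.76 to 1.81) were just under 2-fold. *Slc27a1* at 1.03 (0.896 to 1.18) and *Cpt1a* at 0.872 (0.821 to 0.925) were the lowest of the 10, and the interval of *Slc27a1* held 1. With total counts in place of TMM, 0 of the 10 reached 2-fold, and their median was 1.56 beside 0.819 over all genes.

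In the left ventricle, 7 of the 10 genes were lower in TKO and 3 higher, with a median ratio of 0.887 beside 1.01 over all genes, and 0 reached 2-fold beside 3.52% of all genes lower and 1.95% higher. The lowest were *Acacb* at 0.652 (0.632 to 0.672) and *Slc27a1* at 0.771 (0.705 to 0.843), and the highest *Mlycd* at 1.07 (1.02 to 1.12) and *Fabp3* at 1.05 (1.04 to 1.06). The adipocyte marker *Adipoq* was at 13.5 CPM in the WT and 0.232 CPM in the TKO left ventricle, and *Plin1* at 34 counts in WT and 0 in TKO. Of the 2 brown adipocyte markers, *Ucp1* was at 112 counts in WT and 0 in TKO, while *Cidea* had a TKO over WT ratio of 0.920. Genes of the 10 are also transcribed in adipose tissue, and the part of adipocyte transcripts in the ratios was not tested.

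In the border zone 9 of the 10 genes were higher in TKO, with a median ratio of 1.32 beside 0.998 over all genes. *Slc27a1* at 1.61 (1.47 to 1.76), *Lpl* at 1.40 (1.39 to 1.42), *Cpt2* at 1.38 (1.33 to 1.44), and *Acacb* at 1.38 (1.34 to 1.43) led, *Fabp3* had 1.13 (1.12 to 1.14), and *Cpt1a* was the one below 1 at 0.930, with an interval that reached 1. In the remote zone 9 were higher as well, with a median of 1.20 beside 0.992, again led by *Slc27a1* at 1.51 (1.38 to 1.66) and *Acacb* at 1.38 (1.34 to 1.42). *Fabp3* was the one below 1 there, at 0.977 (0.968 to 0.986), and the interval of *Mlycd*, at 1.05 (0.995 to 1.10), held 1. None of the 10 reached 2-fold in either zone, beside 1.23% of all genes higher and 3.25% lower in the border zone, and 1.17% higher and 2.36% lower in the remote zone.

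The order of the genes by their TKO over WT ratio thus differed between regions: *Acsl1* and *Cpt1b* led in the infarct zone, while *Slc27a1* was first in the border and remote zones and next to last in the infarct zone. The shuttle genes *Cpt1b* and *Cpt2* were above 1 in all 3 zones, and their left ventricle ratios were 1.03 (1.01 to 1.05) and 0.944 (0.910 to 0.980). *Cpt1a* was the only gene of the 10 below 1 in the infarct zone.

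**Figure D4:**
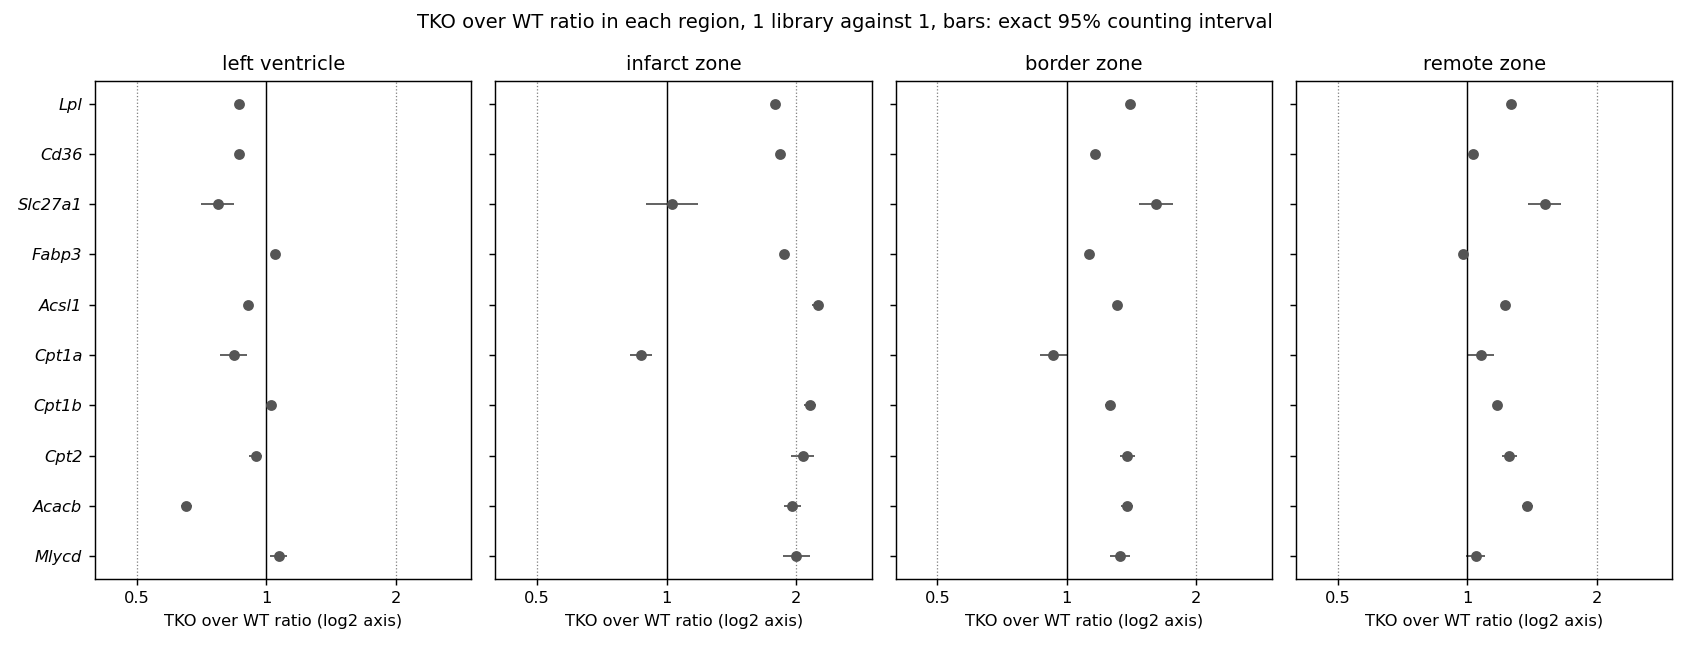
TKO over WT ratio (log2 axis) of the 10 genes in each of the 4 regions, 1 library against 1, with exact 95% counting intervals as bars and dotted lines at 2-fold. In the infarct zone 8 genes lie between 1.78 and 2.24 and *Slc27a1* and *Cpt1a* near or below 1, while in the left ventricle the ratios lie between 0.652 and 1.07.

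Tested across the 4 regions with region as a block, edgeR called 0 of the 10 genes between genotypes, beside 0.138% of all genes, and DESeq2 also called 0, beside 2.63%. At an unadjusted p under 0.05, beside 16.2% of all genes, edgeR had 1 of the 10, *Cpt2*, with a log2 fold change of 0.44 ± 0.18, an adjusted p of 0.302, and a higher level in TKO in 3 of 4 regions. The edgeR adjusted p of the other 9 genes lay between 0.313 for *Mlycd* and 0.570 for *Cd36*, and the log2 fold changes ran from -0.11 ± 0.08 for *Cpt1a* to 0.44 for *Cpt2*. *Mlycd* and *Cpt1b* were higher in TKO in 4 of 4 regions, with log2 fold changes of 0.39 ± 0.16 and 0.42 ± 0.19 and edgeR adjusted p of 0.313 and 0.325. *Tigar* itself was called by the same test, with a log2 fold change of -4.44 ± 0.28 and an edgeR adjusted p of 0.00600. Without the left ventricle libraries, where the adipocyte transcripts lay, edgeR again called 0 of the 10, with 7 at an unadjusted p under 0.05 beside 24.8% of all genes. Without the infarct zone libraries it called 0, with 0 at an unadjusted p under 0.05 beside 9.45% of all genes. These p-values rest on regions as repeats and not on mice.

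Whether the genotype difference of the infarct zone departed from that of the other 3 regions was tested with an interaction term, which rests on 1 TKO and 1 WT infarct library and left 2 residual degrees of freedom. By edgeR, 0 of the 10 genes were called, beside 0.00769% of all genes, which was 1 gene, *Sorbs3*, named after its value was seen. At an unadjusted p under 0.05 there were 6 of the 10, beside 7.83% of all genes. Those 6 were called by DESeq2, all with a TKO over WT ratio that was larger in the infarct zone, beside 2.22% of all genes. Their log2 departures by edgeR were 0.86 ± 0.21 for *Cd36*, 0.84 ± 0.16 for *Fabp3*, 0.99 ± 0.25 for *Acsl1*, 0.91 ± 0.18 for *Cpt1b*, 0.81 ± 0.25 for *Cpt2*, and 0.81 ± 0.20 for *Mlycd*. The edgeR adjusted p was 0.480 for *Cpt2* and 0.410 for the other 5, and the DESeq2 adjusted p lay between 0.00255 for *Fabp3* and 0.0399 for *Cpt2*. *Lpl* and *Acacb* were not called by either tool, with DESeq2 adjusted p of 0.173 and 0.575, and for *Cpt1a* and *Slc27a1*, whose log2 departures by edgeR were -0.12 ± 0.19 and -0.26 ± 0.46, DESeq2 gave no adjusted p.

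The higher TKO levels in the infarct zone came with higher cardiomyocyte transcripts. In the infarct zone the 11 cardiomyocyte markers all had a TKO over WT ratio above 1, with a median of 1.96 and a range from 1.64 for *Tnnt2*, cardiac troponin T, to 3.41 for *Myh6*, while all 7 fibroblast and all 8 macrophage markers had lower levels, with medians of 0.818 and 0.721. The 6 fast skeletal muscle markers were all at least 2-fold lower in TKO, and *Myh4* was at 1486 counts in the WT and 1 in the TKO infarct zone. Skeletal muscle also transcribes *Cd36*, *Fabp3*, and *Cpt1b*, and the WT infarct zone, where those markers were high, was the lowest library for all 3. The part of skeletal muscle transcripts in these levels was not tested. Per summed cardiomyocyte-marker count, the infarct zone ratio of TKO to WT was 1.11 for *Acsl1*, 1.06 for *Cpt1b*, 1.02 for *Cpt2*, 0.991 for *Mlycd*, and 0.969 for *Acacb*. It was 0.926 for *Fabp3*, 0.905 for *Cd36*, and 0.882 for *Lpl*. On this scale *Slc27a1* was at 0.510 and *Cpt1a* at 0.431, both near the median of all genes, 0.497. The interaction test on this scale called 1 of the 10, *Cpt1a*, with a log2 departure of -0.96, beside 40.9% of all genes called lower.

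In the border zone all 11 cardiomyocyte markers were higher in TKO as well, with a median of 1.13, and per cardiomyocyte-marker count the ratios of the 10 genes ran from 0.786 for *Cpt1a* to 1.36 for *Slc27a1*. In the remote zone 10 of 11 were higher, with a median of 1.14, and the ratios of the 10 genes ran from 0.856 for *Fabp3* to 1.33 for *Slc27a1*. *Slc27a1* was thus the highest of the 10 in both zones on either scale. All 7 fibroblast markers were lower in TKO in both zones, with medians of 0.559 (border) and 0.675 (remote), as were 8 of 8 and 7 of 8 macrophage markers, with medians of 0.818 and 0.773. The 6 fast skeletal muscle markers were all at least 2-fold lower in TKO for the border zone, with a median of 0.0695, and had a median of 1.27 for the remote zone. The part of these markers in the ratios of the 10 genes was not tested.

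Of the other fatty acid genes, the 14 beta-oxidation enzymes had TKO over WT ratios with a median of 2.03 for the infarct zone. That median was 1.92 for the 10 entry genes, 1.96 for the 11 cardiomyocyte markers, and 1.005 over all genes. At least 2-fold higher were 7 of the 14 enzymes, 4 of the 11 markers, and 2.45% of all genes. Among the 14 enzymes *Hadha*, the alpha subunit of the trifunctional protein, was highest at 2.25 (2.20 to 2.30), and *Eci2* lowest at 1.65 (1.57 to 1.75). Outside the infarct their medians were 1.03 (left ventricle), 1.29 (border zone), and 1.13 (remote zone). Among the 10 other uptake genes the infarct zone median was 1.21, from *Angptl4* at 0.441 (0.361 to 0.535) to *Got2* at 1.94 (1.89 to 1.99). *Angptl4* was below 1 in all 4 regions, at 0.626 (left ventricle), 0.393 (border zone), and 0.763 (remote zone). The 7 other activation genes had a median of 1.45, from *Acsl4* at 0.758 to *Acsl6* at 2.41, the 5 carnitine genes 1.29, from *Cpt1c* at 0.882 to *Slc25a20* at 1.97, and the 9 malonyl-CoA and synthesis genes 1.18, from *Fasn* at 0.870 to *Acss1* at 1.98. Across regions, edgeR called 0 of these 45 genes between genotypes, beside 0.138% of all genes. By edgeR, 8 had an unadjusted p under 0.05, beside 16.2% of all genes. DESeq2 called 1, *Angptl4*, which was lower, beside 2.63% of all genes.

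Ratios within a library do not depend on the scaling between libraries. They can still differ with the cell makeup of the tissue, and that part was not tested. With TMM, *Cpt1b* was at 0.210 and *Cpt1a* at 0.967 of the left ventricle level in the WT infarct zone. *Cpt1a* made up 31.7% (30.6% to 32.7%) of the summed *Cpt1a* and *Cpt1b* counts in the WT infarct zone and 15.8% (15.1% to 16.5%) in the TKO infarct zone. In the other 6 libraries the share lay between 7.61% in the TKO left ventricle and 10.7% in the WT border zone, and in each of the 4 regions it was higher in WT than in TKO. The intervals take in counting error alone, with 1 library per group, and say nothing of the spread between mice. In the remote zone the intervals of the genotypes overlapped, at 10.2% (9.69% to 10.6%) in WT and 9.42% (8.99% to 9.85%) in TKO. *Cpt1b* was the more abundant isoform in all 8 libraries, also per length, where *Cpt1a* reached 23.7% in the WT infarct zone.

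*Acacb* made up 64.3% (63.4% to 65.2%) of the summed *Acacb* and *Mlycd* counts in the TKO left ventricle, the lowest of the 8 libraries, and 74.7% (74.0% to 75.4%) in the WT left ventricle. The WT remote zone was next lowest at 69.9% (69.0% to 70.8%), and the other 5 libraries lay between 72.8% and 75.4%. The infarct zones, at 73.2% in WT and 72.8% in TKO, had overlapping intervals. *Cpt2* made up 22.4% to 25.6% of the summed *Cpt1b* and *Cpt2* counts over the 8 libraries, while the levels of *Cpt1b* and *Cpt2* spanned 4.88-fold and 5.45-fold.

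**Figure D5:**
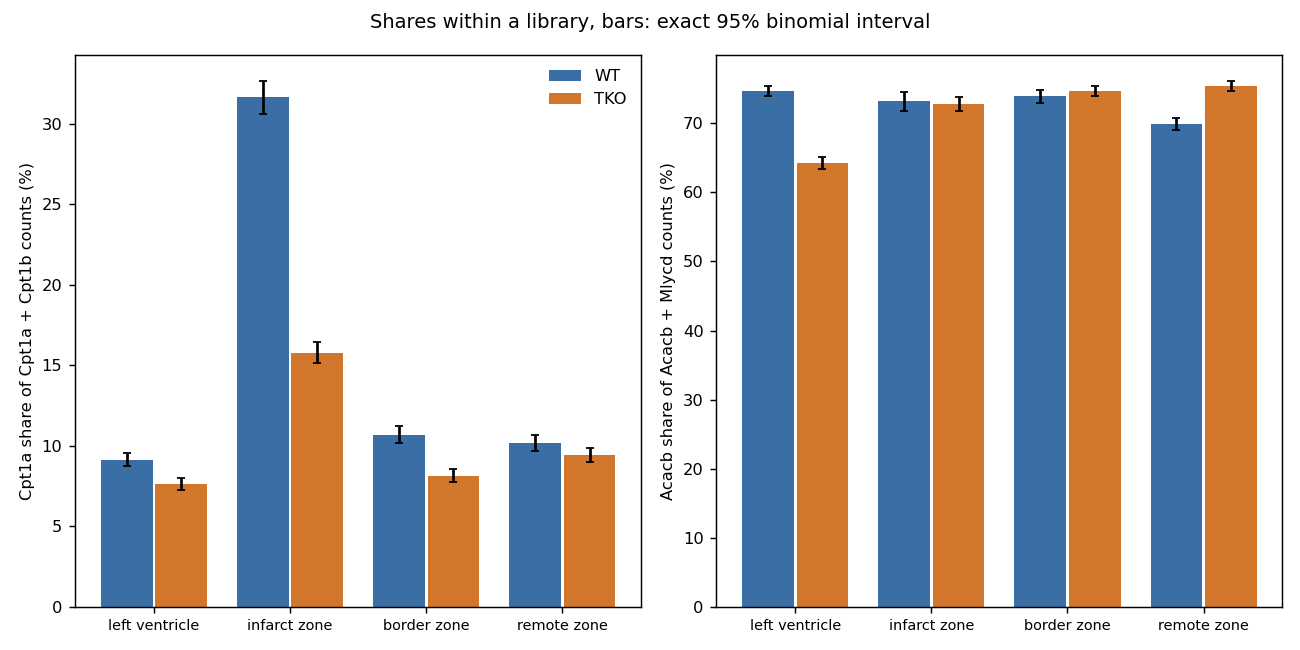
Share in percent (axis from 0) of *Cpt1a* in the summed *Cpt1a* and *Cpt1b* counts (left) and of *Acacb* in the summed *Acacb* and *Mlycd* counts (right) in each region, WT in blue and TKO in orange, 1 library per bar with exact binomial 95% intervals. The *Cpt1a* share stands out in the WT infarct zone at 31.7%, and the *Acacb* share is lowest in the TKO left ventricle at 64.3%.

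Across the 8 libraries, the log2 levels of the 9 genes other than *Cpt1a* moved together, with Pearson correlations between 0.888 and 0.997 over their 36 pairs, while the 9 pairs with *Cpt1a* lay between -0.386 and -0.191. These values describe 8 libraries that share regions and genotypes and are given with no test. Among genes outside the lists, with an SD of at least 0.3 on the log2 scale, the 5 most like the mean profile of the 10 were *Gys1*, *Prss36*, *Pank1*, *Tmem201*, and *Tom1l2*, with correlations from 0.997 to 0.998. *Gys1*, the muscle glycogen synthase, was at 116 CPM in the WT left ventricle, 27.8 CPM in the WT infarct zone, and 47.9 CPM in the TKO infarct zone. *Pank1*, a pantothenate kinase of coenzyme A synthesis, was at 78.4, 16.2, and 29.5 CPM in the same libraries.

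By single gene, the most alike outside the 10 was *Fgf1* for *Lpl*, *Fxr1* for *Cd36*, *Aifm2* for *Slc27a1*, *Ghitm* for *Fabp3*, and *Asrgl1* for *Acsl1*. It was *Hadhb*, the beta subunit of the trifunctional protein, for *Cpt1b*, *Aldh6a1* for *Cpt2*, *Ank3* for *Acacb*, and *Bcat2* for *Mlycd*. For these 9 genes the correlation of the nearest gene was 0.986 to 0.999. For *Cpt1a* the most alike gene, *Cdo1*, had a lower correlation, 0.831. Genes with little spread over the libraries were left out of this search, and *Cpt1a* itself spanned a 1.35-fold range. The lower value therefore cannot tell whether *Cpt1a* stood apart from the other 9 genes.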

How the data were processed

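RNA-seq of 8 heart tissue libraries was used, 1 for each of 2 genotypes and 4 regions, in groups taken from the sample labels. The authors trimmed reads with Trim Galore 0.6.5, estimated transcript abundance with kallisto 0.46 against mouse transcripts (mm10), and deposited 1 table of expected counts per gene, summed with tximport; edgeR 3.34.1 is also listed in the submitters' processing notes. The deposited expected counts were whole numbers, 16994 genes with 27429240 to 33799249 counts per library (median 31908446). Reads of near-identical transcripts were divided by estimate, and *Cpt1b* reads can be shared with the overlapping *Gm44502*. No column of the table was left out.

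Counts were scaled with TMM, and 12999 genes averaging 1 CPM or more were tested. A ratio of 1 library to another has an exact binomial 95% interval and no p-value, and a gene was counted as changed at 2-fold or more after a prior count of 2. Across libraries, edgeR 4.0.16 (R 4.3.3) quasi-likelihood tests were fitted to region plus genotype (3 residual degrees of freedom), and with an added genotype term for the infarct zone (2 residual degrees of freedom), with Benjamini-Hochberg adjustment over all tested genes and a threshold of 0.05. The fit assumes that genotype and region effects add. DESeq2 1.42.0, total counts, DESeq2 size factors, summed cardiomyocyte-marker counts, other filters, no region block, and each region left out were alternatives. The scripts were tested on simulated counts. Python 3.11.15 with pandas 2.3.3, numpy 2.4.6, scipy 1.17.1, and matplotlib 3.10.9 was used for ratios, shares, and plots.

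The 10 genes, the other fatty acid lists, and the marker lists (cardiomyocyte, fibroblast, macrophage, endothelial, adipocyte, brown adipocyte, and fast skeletal muscle) were chosen with earlier results of these data known. Named genes were the 10 genes, the lowest and highest gene of each list, *Tigar*, the 5 genes outside the lists most like the mean profile of the 10, and the gene most like each of the 10, by Pearson correlation of log2(CPM + 0.5) over the 8 libraries among tested genes with an SD of at least 0.3. Other list genes and markers named in the text were chosen after their values were seen. Gene positions came from GENCODE release M21 on GRCm38, in which 16867 of the 16994 identifiers were found.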

Additional observations from a re-analysis of the deposited data

Results flagged for a closer look

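In 6 cases a gene lay below its left ventricle level in WT and above it in TKO with both counting intervals clear of 1. The share of all genes that met the same rule is not given here, so the 6 cases do not set these genes apart. *Cpt1a* also lay on opposite sides, in the infarct and remote zones, with at least 1 interval that held 1. None of these differences was tested, each compares single libraries, and all 6 share the left ventricle libraries, of which the WT one held the adipocyte transcripts. In the border zone *Acacb* was at 0.540 of its left ventricle level in WT and at 1.14 in TKO, so the TKO ratio was 2.12 times the WT ratio. In the remote zone *Acacb* had 0.572 in WT and 1.21 in TKO, and the TKO ratio was again 2.12 times the WT ratio. *Slc27a1* had 0.603 and 1.26 in the border zone, a factor of 2.09 between the genotypes, and 0.626 and 1.23 in the remote zone, a factor of 1.96. *Lpl* in the remote zone had 0.737 in WT and 1.08 in TKO, a factor of 1.46. *Cd36* in the remote zone had 0.858 and 1.03, a factor of 1.20.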

How the results depend on the processing

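With 1 library per group, no result has a replicate, p-values rest on regions or genotypes as repeats, and depth limits none of the 10 genes. The genotype test pairs libraries by region, and the labels give no replicate numbers. With DESeq2 size factors, every ratio median and every count of the 10 genes stayed within its counting error or at its value. With total counts, the TKO over WT median of the 10 genes was 1.56 (infarct zone, 0 genes at 2-fold) and 1.23 (border zone), and the median zone over left ventricle ratios were 0.386, 0.701, and 0.761 in the WT and 0.653 (1 gene at least 2-fold lower), 0.970, and 1.04 in the TKO infarct, border, and remote zones. Per cardiomyocyte-marker count, the median TKO over WT ratio was 0.841 (left ventricle), 0.948 (infarct zone, 0 genes at least 2-fold higher, 1 lower), 1.11 (border zone), and 1.05 (remote zone), and the zone over left ventricle medians were 0.887, 0.820, and 0.911 in WT and 0.957, 1.08, and 1.16 in TKO, with 0 of the 10 at least 2-fold lower and 1 higher in each infarct zone.

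In the infarct zone test, 9 of the 10 were called by DESeq2 (55.4% of all genes), with DESeq2 size factors (56.8%), and with no filter (44.5%), 10 with total counts (68.9%, *Cpt1a* at 0.67), and 1 per cardiomyocyte-marker count (83.9%, *Cpt1a* at 1.58, with *Cd36* at 0.0373). For the infarct zone departure, 6 of the 10 were called by DESeq2 and 1 per cardiomyocyte-marker count, among 288 and 5323 genes, against 0 of 1 in the edgeR test. The genotype test called 0 of the 10 under every alternative run, while its genes numbered 342 by DESeq2, 56 with total counts, 760 per cardiomyocyte-marker count, 8 without the region block, 83 without the left ventricle, and 8, 7, and 3 without the infarct, border, and remote zones, against 18. The border zone test called 576, 200, and 413 genes by DESeq2, with total counts, and per cardiomyocyte-marker count, against 93, and the remote zone test 162, 18, and 184, and 1 with no filter, against 0, with 0 of the 10 called in all of these. Counts of all genes past 2-fold moved by over 1.5 times in 19 cases with no filter, 14 per cardiomyocyte-marker count, 6 with total counts, and 2 when every library had to hold 10 counts. The cause of these shifts was not tested. Taking 2-fold with no prior count, an alternative chosen after seeing the data, moved no count of the 10 genes.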
